A study of Mus musculus with 21 samples.

Results

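The departure from additivity of lenvatinib and an antibody against PD-1 was measured in mouse tumours given both agents, either agent or neither. It is an interaction, (combination − anti-PD1) − (lenvatinib − placebo), and was computed for each of the 22206 non-control probe sets of the array, of which 19572 carried 1 gene symbol. All 21 tumours of the series entered it, so no tumour and no probe set was picked by its value. The interaction is the combination's mean log2 signal minus an additive expectation, which is the lenvatinib mean plus the anti-PD1 mean minus the placebo mean. An interaction of 0 means that the fold changes of the agents against placebo multiplied in the combination, a positive value that the combination stood above that expectation, and a negative value that it stood below.

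The tumours grew under the skin of C57BL/6J mice, females aged 5 to 6 weeks, from Hepa1-6 cells, a mouse hepatoma line. Mice were randomised at a tumour volume of 200 mm3, and each tumour was run on 1 Clariom S Mouse array from the RNA of 30 mg of tissue. In the combination arm 5 mice received lenvatinib and anti-PD1, in the anti-PD1 arm 5 mice received clone J43 at 10 mg/kg into the abdomen every 3 days for 5 doses, in the lenvatinib arm 5 mice received 10 mg/kg by gavage daily, and in the placebo arm 6 mice received drug vehicle with polyclonal IgG. Tissue was collected at day 13, with the final lenvatinib dose 2 h earlier and the final antibody dose 1 day earlier. The sources used here do not say whether mice given a single agent also received the vehicle or control IgG of the other. The model is 1 cell line under the skin of a host with its own immune system, not a liver tumour.

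Lenvatinib blocks the tyrosine kinases of VEGF receptors, FGF receptors and several others, which carry growth signals into endothelial cells and, through the FGF receptors and the MAP kinase cascade, into hepatoma cells. PD-1 is an inhibitory receptor on activated T cells, and its ligands PD-L1 and PD-L2 are made by tumour cells and by macrophages and dendritic cells. Hepatoma lines that keep liver features make plasma proteins and often signal through Wnt and beta-catenin, a pathway known in liver cancer for tumours that hold few T cells.

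The plasma protein gene Rbp4, which encodes the carrier of retinol, was bright in all arms. Its mean log2 signal was 11.23 in the combination, 12.11 under anti-PD1, 12.33 under lenvatinib and 11.72 under placebo. These means lay far above the median of 4.08 of the 5222 negative-control rows. This 1 gene does not by itself show the liver origin of the tumours. Single tumours stood apart in 3 ways. On 6 arrays (combination mouse 1, anti-PD1 mouse 1, lenvatinib mice 1 and 2, placebo mice 4 and 6) the bacterial hybridization controls averaged 11.33 to 11.74, against 10.34 to 10.91 on the other 15, and the interquartile range of all tested signals was 2.41 to 2.82 on these 6 and 3.00 to 3.25 on the others. In 7 tumours skeletal muscle genes were high (combination mouse 2, anti-PD1 mouse 2, lenvatinib mice 2 and 4, placebo mice 1, 3 and 5). Combination mouse 1 was low and lenvatinib mouse 5 high in leukocyte genes relative to the rest of their arms, as the values below show. A tumour piece holds many cell types, so a lower signal from fewer cells of a type and from less RNA per cell cannot be told apart. The number of arrays limits the precision, and the standard error of the interaction was 1.45 times that of the lenvatinib difference from placebo.

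Across the 22206 probe sets, 0 passed a Benjamini-Hochberg adjusted p under 0.05 in limma in either direction (0%), and the smallest adjusted p was 0.151, shared by 57 probe sets. At an unadjusted p under 0.05, 1266 probe sets (5.7%) stood above the additive expectation and 736 (3.31%) below it, 2002 in all (9.02%). At that threshold 1110 probe sets would pass if the p-values were evenly spread. Over all probe sets 48.9% had an interaction above 0 and the median was -0.01. At an adjusted p under 0.2 the 197 probe sets split into 166 above the expectation and 31 below it.

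The sizes of the departures are given beside those of the comparisons that share its arms. The median absolute value was 0.262 for the interaction, against 0.145 for the combination, 0.153 for anti-PD1 and 0.189 for lenvatinib, each set against placebo. A value beyond 2 in either direction was reached by 352 probe sets in the interaction, by 5 for the combination against placebo, by 15 for anti-PD1 and by 86 for lenvatinib. These comparisons share placebo tumours, and the interaction carries the error of 4 arms, with a standard error 1.45 times theirs.

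The named probe sets at an unadjusted p under 0.05 numbered 1144 above the expectation (5.85%) and 679 below it (3.47%). Those above had a median interaction of 1.25, with median differences from placebo of 0.22 for the combination, -0.55 for anti-PD1 and -0.44 for lenvatinib. Those below had a median interaction of -1.05, with -0.05 for the combination, 0.48 for anti-PD1 and 0.54 for lenvatinib. In both sets, then, the combination tumours lay near placebo while the tumours given a single agent lay to the same side of it. The formula favours that arrangement among probe sets picked for a large interaction, so these medians describe the sets and test nothing. For 152 of the 1144 (13.3%) the additive expectation fell below the negative-control median of 4.08, and 55 of these had means above that median in all 4 arms.

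**Figure D1:**
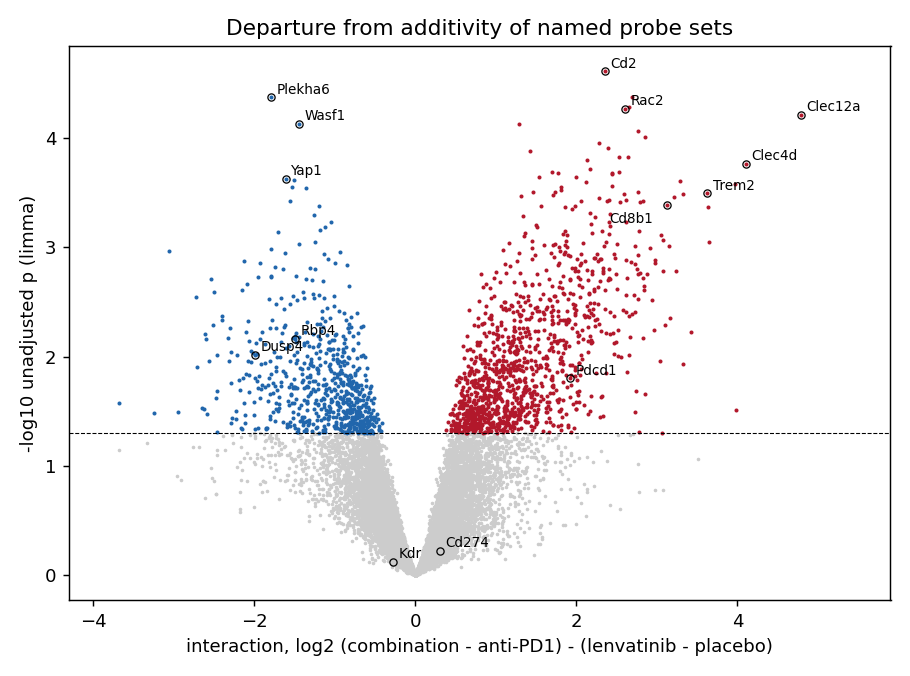
The interaction (log2, horizontal axis) of each named probe set is plotted against the negative log10 of its unadjusted limma p (vertical axis). The dashed line marks an unadjusted p of 0.05, red points lie above the additive expectation and blue points below it. The red side reaches 4.78 at Clec12a and holds 1144 points, and the blue side holds 679.

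The 10 named probe sets with the smallest p above the expectation were Cd2, Cd7, Rac2, Clec12a, Coro1b, Ms4a6b, Lat2, S100a4, Pycard and Zmynd15. Each had an adjusted p of 0.151 in limma. Cd2, an adhesion receptor of T and NK cells, had log2 signals of 6.70, 7.90, 7.73, 8.77 and 8.03 in combination mice 1 to 5 and of 6.39, 5.73, 5.82, 6.67 and 5.67 in anti-PD1 mice 1 to 5. The signals were 6.43, 6.08, 6.08, 6.13 and 7.30 in lenvatinib mice 1 to 5, with a lowest, median and highest placebo tumour at 6.63, 6.97 and 7.53. All combination tumours stood above all anti-PD1 tumours, 4 of 5 lenvatinib tumours stood below all placebo tumours, and lenvatinib mouse 5 lay inside the placebo range. The additive expectation for Cd2 was 5.47, against a combination mean of 7.83, an interaction of 2.35 ± 0.44 (SE) or a 5.11-fold excess on the linear scale.

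Cd7, a surface protein of T and NK cells, had an interaction of 2.69 ± 0.52, with means of 7.40 ± 0.46 in the combination, 5.47 ± 0.58 under anti-PD1, 5.95 ± 0.98 under lenvatinib and 6.71 ± 0.41 under placebo (SD, n = 5, 5, 5 and 6). Rac2, a small GTPase of blood cells, had signals of 8.83, 9.83, 9.35, 10.74 and 10.37 in combination mice 1 to 5 and of 8.21, 6.60, 7.85, 8.59 and 7.80 in anti-PD1 mice 1 to 5. Rac2 stood at 8.42, 8.81, 7.85, 8.37 and 9.48 in lenvatinib mice 1 to 5, and the placebo tumours had 8.86, 9.06 and 9.70 as lowest, median and highest. The combination and anti-PD1 tumours did not overlap, and 4 of 5 lenvatinib tumours lay below the placebo range. The interaction of Rac2 was 2.60 ± 0.51, a 6.06-fold excess over an expectation of 7.22 on the log2 scale.

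Clec12a, an inhibitory lectin of myeloid cells, had the largest interaction of any named probe set, at 4.78 ± 0.96. Its signals were 6.32, 8.85, 8.36, 7.61 and 9.22 in combination mice 1 to 5 and 5.15, 4.19, 4.83, 7.36 and 5.09 in anti-PD1 mice 1 to 5. They were 5.14, 4.53, 5.33, 6.13 and 7.79 in lenvatinib mice 1 to 5, against 6.29, 8.20 and 9.16 in the lowest, median and highest placebo tumour. The combination overlapped with placebo, the anti-PD1 tumours other than mouse 4 stood below every combination tumour, and lenvatinib mouse 5 was the highest of its arm. The 27.5-fold excess is set against an expectation of 3.29, which lay below the negative-control median.

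Lat2, an adaptor below immune receptors of B cells, mast cells and myeloid cells, averaged 8.37 ± 0.90 in the combination, 6.38 ± 0.85 under anti-PD1, 7.19 ± 0.68 under lenvatinib and 8.06 ± 0.47 under placebo, an interaction of 2.85 ± 0.59. Pycard, the ASC adaptor of inflammasomes, had an interaction of 2.39 ± 0.51, and S100a4, a calcium-binding protein of motile cells, had 2.28 ± 0.48. Coro1b, an actin-binding coronin, had the smallest departure of the 10 at 1.29 ± 0.26, with combination tumours between 8.14 and 8.65 and anti-PD1 tumours between 7.22 and 7.70. Ms4a6b had 2.76 ± 0.57 and Zmynd15 1.42 ± 0.30.

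The 10 named probe sets with the smallest p below the expectation were Plekha6, Wasf1, Yap1, Lgr4, Adam3, Card10, Tmem255a, Dlg5, Slc19a3 and Olfr1323, with limma adjusted p from 0.151 to 0.176. Plekha6, which encodes a pleckstrin homology domain protein, had log2 signals of 5.49, 4.92, 4.88, 4.92 and 4.93 in combination mice 1 to 5 and of 6.08, 6.21, 6.26, 5.70 and 6.57 in anti-PD1 mice 1 to 5. The corresponding values were 5.49, 5.87, 6.53, 5.79 and 5.98 in lenvatinib mice 1 to 5 and 4.57, 5.32 and 5.97 in the lowest, median and highest placebo tumour. Every anti-PD1 tumour stood above every combination tumour, and the lenvatinib arm overlapped the placebo arm. The combination mean was 5.03, against an expectation of 6.82, an interaction of -1.79 ± 0.35.

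Yap1, the transcriptional coactivator that the Hippo kinases hold in check, had signals of 4.74, 4.13, 4.40, 4.34 and 3.76 in combination mice 1 to 5 and of 4.79, 5.75, 4.90, 5.08 and 5.80 in anti-PD1 mice 1 to 5. It had 5.63, 4.55, 5.32, 5.52 and 4.76 in lenvatinib mice 1 to 5, and 4.03, 4.58 and 5.06 in the lowest, median and highest placebo tumour. The combination tumours lay below all anti-PD1 tumours and overlapped the placebo tumours, and the lenvatinib and placebo ranges overlapped too. Its interaction was -1.61 ± 0.36, which on the linear scale put the combination at 0.329 times the expected signal. The Yap1 means of 4.27 in the combination and 4.54 under placebo lay near the negative-control median of 4.08. Combination mouse 5 and the lowest placebo tumour lay below that median. Lgr4, a receptor for R-spondins that raises Wnt signalling, averaged 6.18 ± 0.41 in the combination, 7.11 ± 0.51 under anti-PD1, 7.07 ± 0.21 under lenvatinib and 6.49 ± 0.38 under placebo, and its interaction was -1.50 ± 0.34.

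Wasf1, a WAVE protein that drives actin branching, had an interaction of -1.45 ± 0.29, and its lenvatinib tumours (4.53 to 5.19) stood above all placebo tumours (3.18 to 4.35). Dlg5, a scaffold of epithelial polarity, had -1.19 ± 0.28, and Card10, a scaffold for NF-kappaB signalling outside blood cells, had -1.35 ± 0.31. Tmem255a had -1.56 ± 0.37. Adam3, a sperm surface protein, Slc19a3, a thiamine transporter, and Olfr1323, an olfactory receptor, had interactions of -1.53, -1.26 and -1.04. Their arm means lay between 3.33 and 4.89, at or near the negative-control median of 4.08. The Wasf1 arm means, 4.01 under placebo to 4.92 under anti-PD1, were also near that median.

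**Figure D2:**
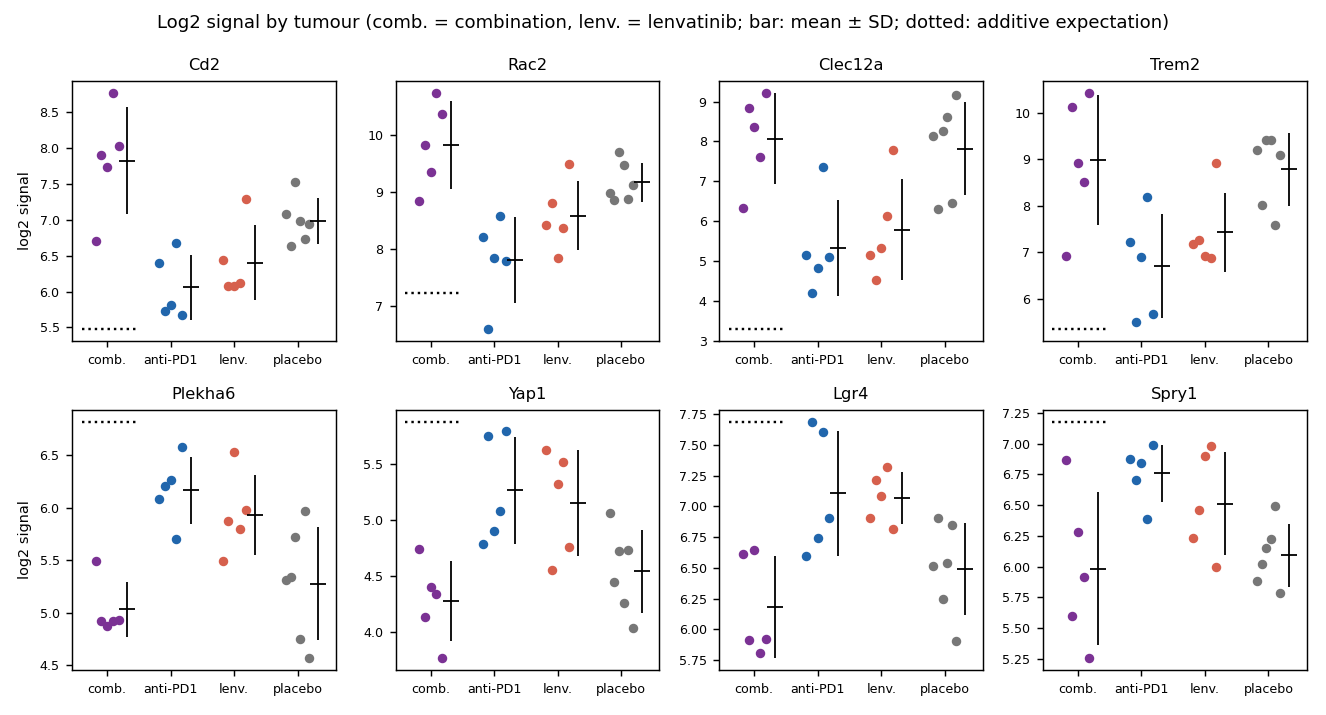
Log2 signal (vertical axis) of Cd2, Rac2, Clec12a, Trem2, Plekha6, Yap1, Lgr4 and Spry1 in each tumour by arm, with the combination on the left and placebo on the right. Points are tumours, bars are the arm's mean ± SD, and the dotted line is the additive expectation for the combination. In Cd2, Rac2, Clec12a and Trem2 the combination mean lies above the expectation, and in Plekha6, Yap1, Lgr4 and Spry1 below it.

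Promoters of 2 genes from each side are shown because each holds a motif that the text counts. The windows are from RefSeq (GRCm38.p6), which held a window for 4 of the 10 leading genes above the expectation and 9 of the 10 below. Each window runs 5′ to 3′ over the 250 bases before and 50 after the gene's start, with motif matches on either strand in capitals. The Clec12a window lies at chr6:129349994-129350293, plus strand, S100a4 at chr3:90603520-90603819, plus strand, Yap1 at chr9:8004547-8004846, minus strand and Lgr4 at chr2:109917397-109917696, plus strand.
Clec12a: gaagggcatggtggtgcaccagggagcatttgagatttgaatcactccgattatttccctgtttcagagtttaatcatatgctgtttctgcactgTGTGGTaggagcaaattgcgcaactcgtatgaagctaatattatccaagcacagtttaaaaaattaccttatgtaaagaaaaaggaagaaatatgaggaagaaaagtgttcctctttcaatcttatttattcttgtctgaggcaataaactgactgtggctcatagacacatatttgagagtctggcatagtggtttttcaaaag
S100a4: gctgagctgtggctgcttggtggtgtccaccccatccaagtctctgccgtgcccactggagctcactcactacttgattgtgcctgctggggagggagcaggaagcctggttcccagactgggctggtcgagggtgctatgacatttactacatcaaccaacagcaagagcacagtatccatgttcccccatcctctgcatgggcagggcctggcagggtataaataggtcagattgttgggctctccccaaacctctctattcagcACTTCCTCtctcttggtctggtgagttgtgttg
Yap1: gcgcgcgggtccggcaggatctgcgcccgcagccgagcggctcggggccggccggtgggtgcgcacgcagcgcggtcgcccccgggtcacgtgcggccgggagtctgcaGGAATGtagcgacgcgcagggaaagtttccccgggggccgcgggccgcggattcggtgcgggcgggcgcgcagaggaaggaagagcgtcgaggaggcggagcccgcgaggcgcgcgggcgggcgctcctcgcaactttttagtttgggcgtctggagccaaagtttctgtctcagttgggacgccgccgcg
Lgr4: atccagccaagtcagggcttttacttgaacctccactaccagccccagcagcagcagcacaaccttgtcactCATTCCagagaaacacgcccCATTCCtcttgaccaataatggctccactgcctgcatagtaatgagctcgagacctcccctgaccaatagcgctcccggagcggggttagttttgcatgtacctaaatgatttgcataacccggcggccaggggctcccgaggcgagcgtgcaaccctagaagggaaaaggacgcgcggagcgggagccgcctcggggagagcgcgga
The motifs searched on both strands were GAGGAAGT, bound by the myeloid ETS factor PU.1, TGTGGT, bound by RUNX factors of blood cells, CATTCC, bound by the TEAD partners of YAP, and CTTTGA, bound by the TCF/LEF partners of beta-catenin. The GAGGAAGT letters were in 2 of the 4 windows above the expectation (Pycard and S100a4), in 0 of the 9 below and in 3.20% of all 32851 windows. TGTGGT was in 1 of 4 (Clec12a), in 1 of 9 (Wasf1) and in 16.8% of all. CATTCC was in 0 of 4, in 3 of 9 (Lgr4, Wasf1 and Yap1) and in 14.7% of all, and CTTTGA was in 0 of 4, in 2 of 9 (Plekha6 and Slc19a3) and in 16.0%. The matches describe the windows, and these counts are too small to set the sides apart.

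Gene lists were read by how many members lay above or below the expectation and by their median interaction, beside 48.9% above and a median of -0.01 over all probe sets. Of the T cell list, which holds the T cell receptor complex and its proximal kinases, 14 of 14 measured genes were above the expectation and 13 of 14 reached an unadjusted p under 0.05, against 5.7% of all probe sets. The list's median interaction was 2.03, and its median differences from placebo were 0.68 for the combination, -0.86 for anti-PD1 and -0.41 for lenvatinib. The list score, the mean of the members after each was centred on all tumours, was -0.40, 0.86, 0.62, 1.83 and 1.10 in combination mice 1 to 5 and -0.50, -1.58, -0.63, -0.13 and -0.72 in anti-PD1 mice 1 to 5. It was -0.51, -0.45, -0.59, -0.40 and 0.57 in lenvatinib mice 1 to 5 and -0.23, 0.07 and 0.60 in the lowest, median and highest placebo tumour. Combination mice 2 to 5 stood above every placebo tumour and combination mouse 1 stood below them all, beside the anti-PD1 tumours. The score's interaction was 1.95 ± 0.48. Among its genes Lat, the membrane adaptor of the T cell receptor, had 2.13 ± 0.46 (limma adjusted p = 0.151), and Sit1, an adaptor that dampens that receptor, had 2.45 ± 0.55.

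Cytotoxic and NK cell genes also lay above the expectation. In the CD8 and cytotoxic list 15 of 15 genes were above the expectation, 8 at an unadjusted p under 0.05, with a median of 1.39. Cd8b1, the beta chain of the CD8 coreceptor, averaged 9.62 ± 0.95 in the combination, 7.14 ± 1.43 under anti-PD1, 8.07 ± 0.74 under lenvatinib and 8.72 ± 0.33 under placebo, and its interaction was 3.13 ± 0.75 (limma adjusted p = 0.152). Ctsw, a protease of cytotoxic cells, had 1.78 ± 0.46, and Nkg7, a protein of cytotoxic granules, had 2.16 ± 0.63. Of the NK cell list 9 of 9 were above with a median of 1.24, 5 at an unadjusted p under 0.05, led by the receptors Klrd1 at 2.73 ± 0.84, Klrc1 at 1.83 ± 0.66 and Klrb1c at 1.83 ± 0.67. Of the CD4 and regulatory T cell list 8 of 11 were above, 6 at that threshold. Among these were Tnfrsf18 (GITR) at 1.35 ± 0.34, the CD40 ligand Cd40lg at 1.44 ± 0.45, the costimulator Icos at 2.51 ± 0.82 and Ccr8 at 1.51 ± 0.66. The 3 members below were Il2ra at -0.15 ± 0.23, Ikzf4 at -0.23 ± 0.45 and Il10 at -0.09 ± 0.27, and Ikzf2 had 0.30 ± 0.32. The Cd40lg means were 4.34 in the combination, 3.33 under anti-PD1, 3.55 under lenvatinib and 3.97 under placebo, so that the combination alone stood above the negative-control median of 4.08. The expectations of Cd40lg (2.90), Klrc1 (3.69) and Klrb1c (3.76) all lay below that median.

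Pdcd1, which encodes PD-1 itself, averaged 6.64 ± 1.00 in the combination, 5.26 ± 1.00 under anti-PD1, 5.84 ± 1.03 under lenvatinib and 6.38 ± 0.58 under placebo, with an interaction of 1.92 ± 0.73 (limma adjusted p = 0.389). Its ligand gene Cd274 (PD-L1) had an interaction of 0.30 ± 0.57 and means of 9.23 ± 0.23 in the combination, 8.28 ± 0.99 under anti-PD1, 9.48 ± 0.52 under lenvatinib and 8.83 ± 0.76 under placebo. The PD-L2 gene Pdcd1lg2 had 1.94 ± 1.05. The interactions of Pdcd1 and Pdcd1lg2 were of like size and that of Cd274 was below its own standard error, and the differences between these genes were not tested. In the checkpoint and exhaustion list 10 of 12 genes were above the expectation with a median of 0.93, and 2 reached an unadjusted p under 0.05. Its leading gene was Entpd1, the ectonucleotidase CD39, at 1.62 ± 0.49. The 2 members below were Tigit at -0.27 ± 0.57 and Tox at -0.03 ± 0.50.

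Macrophage and monocyte genes had interactions close in size to those of T cell genes. Of this list 16 of 16 measured genes were above the expectation and 14 had an unadjusted p under 0.05, with a median of 1.90 and median differences from placebo of 0.21 for the combination, -1.11 for anti-PD1 and -0.63 for lenvatinib. The score was -0.48, 1.06, 0.59, 0.39 and 1.20 in combination mice 1 to 5 and -0.91, -1.34, -0.75, 0.45 and -0.99 in anti-PD1 mice 1 to 5. It was -0.70, -0.62, -0.56, -0.26 and 0.77 in lenvatinib mice 1 to 5, against -0.12, 0.41 and 0.93 in the lowest, median and highest placebo tumour. Lenvatinib mice 1 to 4 lay below all placebo tumours and mouse 5 among them, and anti-PD1 mouse 4 was the only tumour of its arm within the placebo range. Lyz2, the lysozyme of myeloid cells, averaged 11.71 ± 0.94 in the combination, 9.82 ± 1.23 under anti-PD1, 10.20 ± 1.04 under lenvatinib and 11.62 ± 0.61 under placebo, with an interaction of 3.32 ± 0.77. Tyrobp, the DAP12 signalling adaptor, had 2.42 ± 0.59, and Ms4a7 had 2.41 ± 0.60.

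Trem2, a lipid-sensing receptor of tumour macrophages, had log2 signals of 6.93, 10.11, 8.93, 8.50 and 10.42 in combination mice 1 to 5 and of 7.23, 5.50, 6.91, 8.19 and 5.69 in anti-PD1 mice 1 to 5. They were 7.18, 7.26, 6.92, 6.88 and 8.92 in lenvatinib mice 1 to 5 and 7.59, 9.14 and 9.41 in the lowest, median and highest placebo tumour. Combination mouse 1 overlapped the anti-PD1 tumours and the other combination tumours stood above them, and lenvatinib mice 1 to 4 lay below the placebo range. Its interaction was 3.62 ± 0.84 (limma adjusted p = 0.151), a 12.3-fold excess over an expectation of 5.36 on the log2 scale. In the list of Trem2 and suppressive macrophage genes 9 of 11 were above the expectation, with a median of 1.49 (0.65 without anti-PD1 mouse 2). At an unadjusted p under 0.05 there were 4, including the lectin Lgals3 at 2.05 ± 0.48 and the fatty acid carrier Fabp5 at 0.97 ± 0.32. The 2 members below were Fn1 at -0.96 ± 0.51 and Vegfa at -0.19 ± 0.48.

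Of the neutrophil list 12 of 14 were above with a median of 0.78 (0.44 without anti-PD1 mouse 2), and 4 reached an unadjusted p under 0.05. Clec4d, a lectin of neutrophils and monocytes, had 4.10 ± 0.90, and its relative Clec4e had 1.92 ± 0.54. Retnlg, a resistin-like protein of neutrophils, had 2.27 ± 0.65, and Mmp8 had 1.80 ± 0.78. Camp at -0.63 ± 0.85 and Ngp at -0.20 ± 0.97 were the 2 members below, and Mmp9 had 0.07 ± 0.65. Of the dendritic cell list 14 of 14 were above with a median of 0.69, and 4 reached that threshold. They included Batf3, a transcription factor of cross-presenting dendritic cells, at 1.25 ± 0.37, the receptor kinase Flt3 at 1.27 ± 0.38 and the integrin Itgax at 2.47 ± 0.86. The Flt3 means, 3.26 to 4.14, were close to the negative-control median, and its expectation was 2.88.

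Genes of antigen presentation were read by class. Of the MHC class II list 10 of 10 genes were above the expectation and 7 had an unadjusted p under 0.05, with a median of 1.40. H2-Aa, the alpha chain of I-A, averaged 11.06 ± 0.47 in the combination, 10.07 ± 0.57 under anti-PD1, 10.32 ± 0.43 under lenvatinib and 10.84 ± 0.26 under placebo, an interaction of 1.50 ± 0.37. H2-Ab1, its beta chain, had 1.76 ± 0.59, and Ctss, the protease that trims the invariant chain, had 1.84 ± 0.61. Of the MHC class I and peptide processing list 11 of 12 were above, with a median of 0.24, and 0 reached that threshold. Its leading gene H2-K1 had 0.98 ± 0.52 (limma adjusted p = 0.616). The difference between the classes was not tested.

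Interferon genes lay near 0 or below. Of the type I interferon-stimulated list 8 of 16 were above the expectation with a median of -0.02, and of the interferon-gamma response list 2 of 14 with a median of -0.33. None of either list reached an unadjusted p under 0.05. The leading genes were Oas2, an RNA-sensing synthetase, at -0.57 ± 0.32, and Cxcl11, an interferon-induced chemokine, at -1.07 ± 0.56. Leaving out 1 mouse at a time moved the interferon-gamma median between -0.58 (anti-PD1 mouse 2) and -0.06 (anti-PD1 mouse 3). The interferon-gamma list's median differences from placebo were 0.24 for the combination, -0.18 for anti-PD1 and 0.71 for lenvatinib.

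Chemokines of lymphocytes and costimulators stood with the leukocyte lists. Of the lymphocyte chemokine and receptor list 11 of 11 were above the expectation, 4 at an unadjusted p under 0.05. Cxcr6, a receptor of tissue T cells, had 2.26 ± 0.61, its ligand Cxcl16 had 1.57 ± 0.57, and Ccl19, which draws naive T cells and dendritic cells, had 1.99 ± 0.85. Of the costimulation list 9 of 12 were above, 5 at that threshold, including the B7 ligands Cd80 at 1.86 ± 0.47 and Cd86 at 2.08 ± 0.54 and their receptor Cd28 at 1.23 ± 0.35. The 3 members below were Tnfsf4 at -1.33 ± 1.02, Cd70 at -0.60 ± 0.31 and Tnfsf9 at -0.0028 ± 0.23. Of the inflammatory cytokine list 10 of 14 were above with a median of 0.27. At an unadjusted p under 0.05 there were 2 above and 1 below. Tnf, its leading gene, had 1.22 ± 0.42, and the member below at that threshold, Lif, had -0.71 ± 0.34.

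B cell genes were high in combination mice 3 and 4. Of the B cell list 12 of 12 were above the expectation, 5 at an unadjusted p under 0.05, with a median of 1.30. The score was -0.42, 0.06, 1.42, 3.58 and 0.15 in combination mice 1 to 5 and -0.15, -0.81, -0.58, -0.22 and -0.39 in anti-PD1 mice 1 to 5. It was 0.22, -0.78, -0.25, -0.07 and -0.34 in lenvatinib mice 1 to 5, against -0.57, -0.26 and 0.07 in the lowest, median and highest placebo tumour. Without combination mouse 4 the list's median was 0.56, and without combination mice 3 and 4 it was 0.17. Blnk, the B cell linker, had 1.98 ± 0.62, and Cd22, an inhibitory B cell receptor, had 2.05 ± 0.76. Of the plasma cell list 7 of 8 were above with a median of 0.88, and 3 had an unadjusted p under 0.05. They included Mzb1 at 2.46 ± 0.80 and Jchain, the joining chain of secreted antibody, at 3.07 ± 1.47. Prdm1, the member below, had -0.32 ± 0.92, while Xbp1 had 0.0022 ± 0.36 and Derl3 0.16 ± 0.38.

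**Figure D3:**
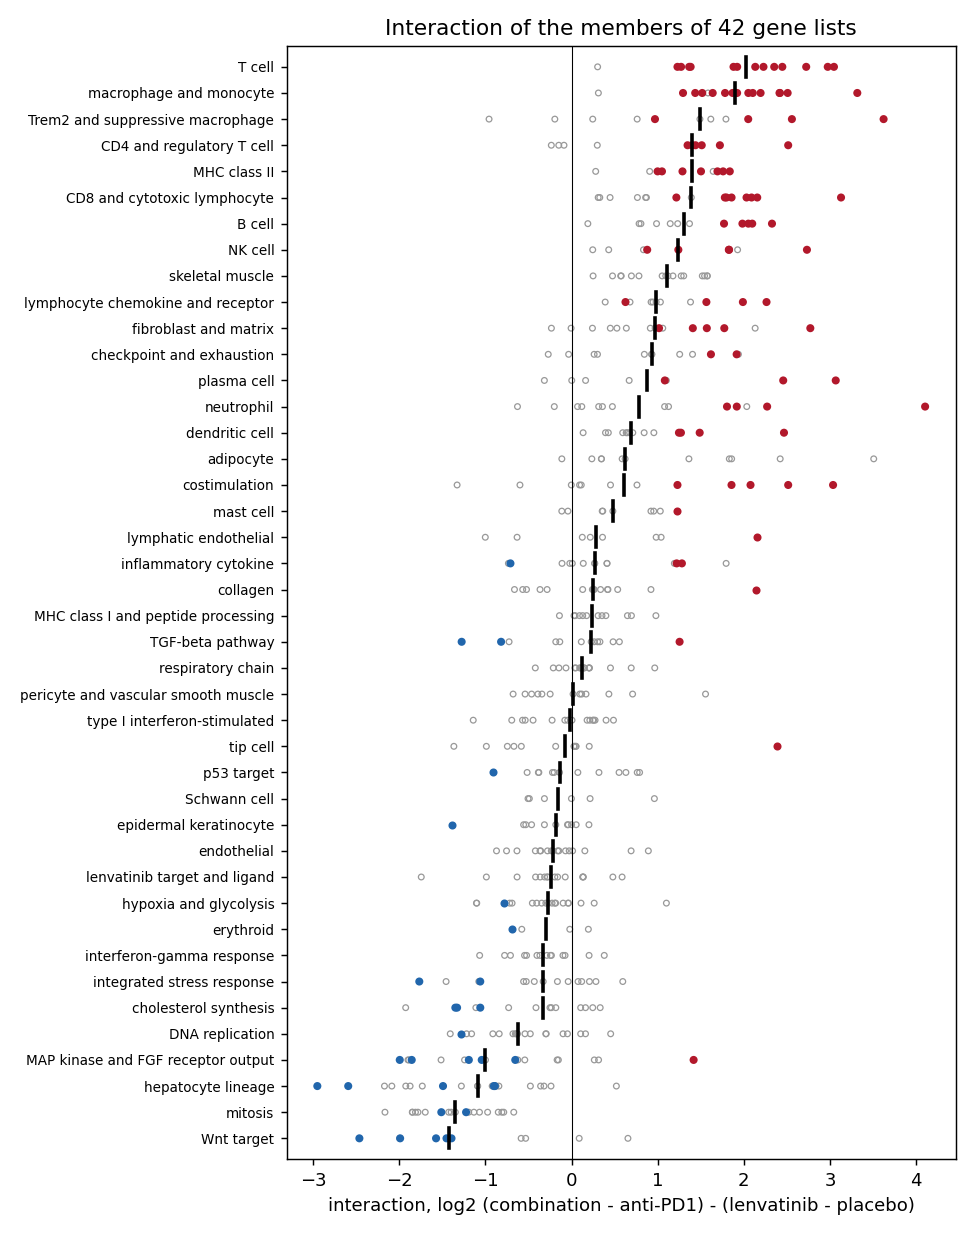
The interaction of every measured member (points, log2) is drawn for each of 42 gene lists, with a bar at the list's median and filled points where the unadjusted p was under 0.05. Leukocyte lists lie to the right of 0, with medians up to 2.03 for the T cell list, and the mitosis, hepatocyte lineage and Wnt target lists lie to the left, with medians of -1.35, -1.09 and -1.42.

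Hepatoma genes lay on the other side. Of the hepatocyte lineage list, plasma proteins and liver transcription factors, 21 of 22 measured genes were below the expectation and 5 reached an unadjusted p under 0.05, against 3.31% of all probe sets. The list's median was -1.09, with median differences from placebo of -0.04 for the combination, 0.38 for anti-PD1 and 0.65 for lenvatinib. Its score was 0.74, -0.64, 0.21, -0.62 and -1.06 in combination mice 1 to 5 and -0.31, -1.03, 0.81, 0.12 and 0.73 in anti-PD1 mice 1 to 5. It was 0.26, 0.87, 0.77, 0.63 and 0.38 in lenvatinib mice 1 to 5, against -1.11, -0.37 and 0.86 in the lowest, median and highest placebo tumour. All arms overlapped, and the lenvatinib tumours were the most alike. Rbp4 had an interaction of -1.49 ± 0.50, Trf, transferrin, had -0.89 ± 0.32, and Fga, the fibrinogen alpha chain, had -0.90 ± 0.38.

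Wnt target genes were below the expectation in 8 of 10 cases, 5 at an unadjusted p under 0.05, with a median of -1.42 and median differences from placebo of 0.10 for the combination, 0.61 for anti-PD1 and 0.81 for lenvatinib. Axin2, a feedback inhibitor of the pathway, averaged 7.11 ± 1.20 in the combination, 7.57 ± 1.37 under anti-PD1, 8.51 ± 0.32 under lenvatinib and 6.97 ± 1.39 under placebo, with an interaction of -1.99 ± 0.94. Lgr5, a relative of Lgr4, had -1.39 ± 0.64, and the transcription factor Tbx3 had -1.57 ± 0.54. The score had an interaction of -1.12 ± 0.48, and the 4 arms overlapped.

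The output genes of MAP kinase and FGF receptor signalling, which lenvatinib acts on upstream, were below the expectation in 14 of 17 cases, with a median of -1.0. At an unadjusted p under 0.05 there were 5 below and 1 above. Spry1, a feedback inhibitor of receptor kinases, had signals of 6.87, 5.60, 6.28, 5.92 and 5.26 in combination mice 1 to 5 and of 6.87, 6.71, 6.84, 6.38 and 6.98 in anti-PD1 mice 1 to 5. They were 6.23, 6.46, 6.90, 6.98 and 6.00 in lenvatinib mice 1 to 5 and 5.79, 6.08 and 6.49 in the lowest, median and highest placebo tumour. The arms overlapped, with combination mouse 1 the highest of its arm. Its interaction was -1.19 ± 0.35 (limma adjusted p = 0.230). Dusp4, a phosphatase that turns off MAP kinases, had -1.99 ± 0.70, while Fos, an immediate early transcription factor, was the 1 member above at that threshold, at 1.42 ± 0.45. The list's median differences from placebo were 0.21 for the combination, 0.51 for anti-PD1 and 0.65 for lenvatinib.

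Proliferation genes lay below as well. Of the mitosis list 19 of 19 were below the expectation, 2 at an unadjusted p under 0.05, with a median of -1.35 and a score interaction of -1.34 ± 0.82. Kif11, the spindle kinesin, had -1.51 ± 0.60. Of the DNA replication list 16 of 19 were below, with a median of -0.63. The mitosis score overlapped between all arms, at -1.0 to 0.38 in the combination and -1.61 to 0.74 under placebo. Of the cholesterol synthesis list 10 of 14 were below, 3 at that threshold, the enzymes Sc5d at -1.06 ± 0.37, Hmgcs1 at -1.35 ± 0.51 and Fdps at -1.33 ± 0.62. Of the integrated stress response list 10 of 15 were below and 5 above, with a median of -0.33 and 2 below at that threshold. Its leading gene Asns, the asparagine synthetase, had -1.06 ± 0.39. Of the hypoxia and glycolysis list 16 of 19 were below, with a median of -0.27. The 1 gene at that threshold was Bnip3, a hypoxia-induced mitophagy receptor, at -0.78 ± 0.35.

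**Figure D4:**
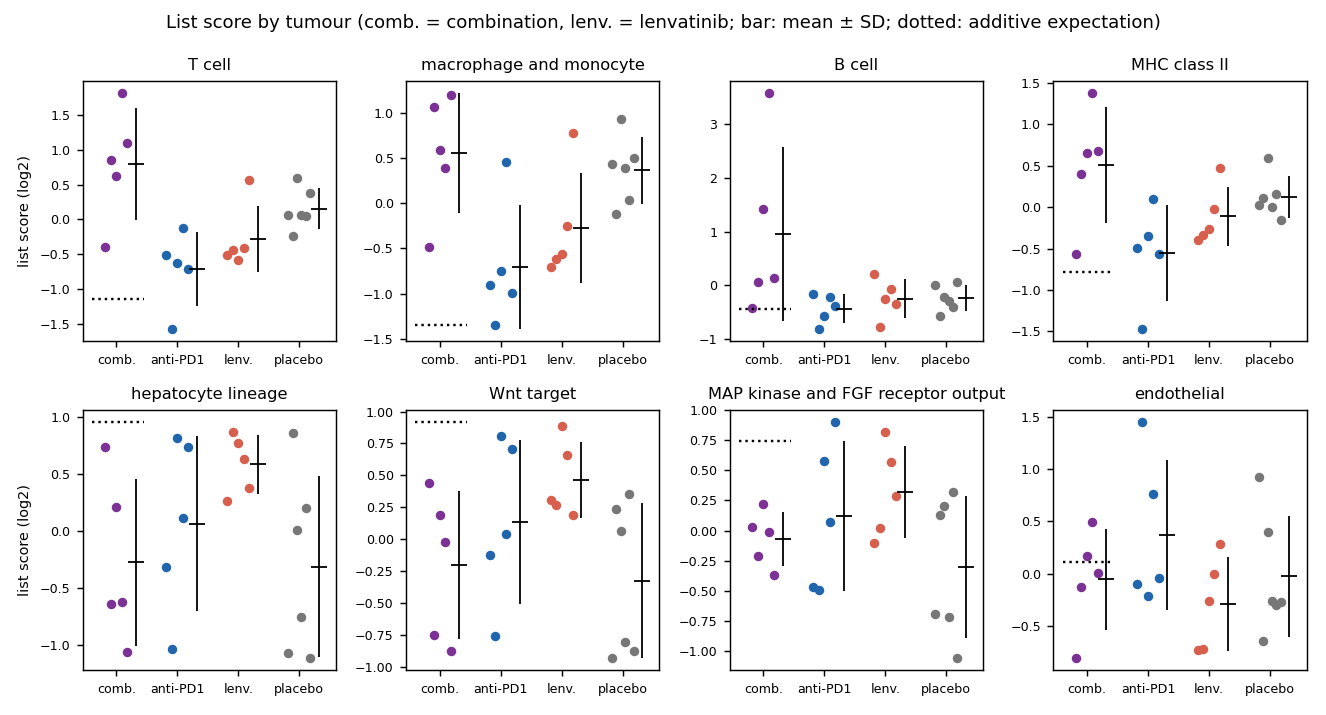
List scores (vertical axis, mean log2 signal after centring each gene on the 21 tumours) are shown for 8 gene lists, 1 point per tumour, with the combination on the left and placebo on the right, bars at mean ± SD and a dotted line at the additive expectation. The T cell score is above 0.6 in 4 of 5 combination tumours and at -0.40 in the other, and the hepatocyte lineage score overlaps between all arms.

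Vessel genes and the receptors that lenvatinib inhibits had interactions nearer 0. Of the endothelial list 13 of 17 were below the expectation with a median of -0.22 and 0 at an unadjusted p under 0.05, led by the transcription factor Erg at -0.87 ± 0.63. Of the lenvatinib target and ligand list 11 of 16 were below, with a median of -0.24 and 0 at that threshold. The VEGF receptor genes Kdr, Flt1 and Flt4 had interactions of -0.28 ± 0.89, -0.16 ± 0.59 and -0.63 ± 0.43. The FGF receptor genes Fgfr1, Fgfr2 and Fgfr3 had 0.14 ± 0.50, -0.42 ± 0.81 and -0.31 ± 0.26, and Fgfr4, the receptor of liver cells for FGF19-type hormones, had -1.74 ± 0.95. Kit had 0.48 ± 1.18 and Ret -0.36 ± 0.23. The smallest limma adjusted p of these 9 receptor genes was 0.626, for Fgfr4, and intervals of this width do not show that the receptors were additive.

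In the tip cell list Cxcr4, a chemokine receptor that leukocytes also carry, was the 1 gene at an unadjusted p under 0.05, at 2.38 ± 0.56. In the lymphatic endothelial list it was Pdpn, also made by fibroblasts and macrophages, at 2.15 ± 0.69. The pericyte list had a median of 0.02, and its leading gene Cspg4 (NG2) had -0.68 ± 0.36.

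Fibroblast and matrix genes were above the expectation in 13 of 15 cases, 5 at an unadjusted p under 0.05, with a median of 0.97. Thy1, a surface protein of fibroblasts and T cells, had 1.02 ± 0.34, the microfibril protein Mfap5 had 1.77 ± 0.62, and the elastin crosslinking enzyme Loxl1 had 1.57 ± 0.61. The 2 members below were Dcn at -0.23 ± 0.24 and Fbln1 at -0.0055 ± 0.56. The fibroblast and matrix list's median differences from placebo were -0.18 for the combination, -0.35 for anti-PD1 and -0.87 for lenvatinib. Of the collagen list 10 of 15 were above with a median of 0.25, led by Col3a1 at 2.14 ± 0.94. Of the TGF-beta pathway list 8 of 13 were above with a median of 0.23, and at an unadjusted p under 0.05 there were 1 above and 2 below. The members below were Smad3, a signal transducer, at -1.28 ± 0.46 and Ccn2, a matricellular target of TGF-beta and of YAP, at -0.82 ± 0.35. The member above, named after its value was seen, was Tgfbi, a matrix protein induced by TGF-beta, at 1.25 ± 0.57. Adipocyte genes lay on the same side as the fibroblast genes, with 10 of 11 above the expectation and a median of 0.62. The adipocyte list's median differences from placebo were -1.27 for the combination, -0.22 for anti-PD1 and -1.73 for lenvatinib. Its score ran from -2.48 to 0.89 in the combination, -2.50 to 2.83 under anti-PD1, -2.63 to -0.08 under lenvatinib and -1.51 to 2.61 under placebo, and its part in the fibroblast result was not tested.

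Values of other tissues and of array brightness moved beside these results. The skeletal muscle list had 16 of 16 genes above the expectation with a median of 1.11 and a score interaction of 1.04 ± 2.12, and 0 genes at an unadjusted p under 0.05. The median was -0.04 without combination mouse 2. Its score ranged from -1.73 to 4.56 in the combination, from -1.74 to 3.06 under anti-PD1, from -1.74 to 3.53 under lenvatinib and from -1.37 to 3.82 under placebo. Without the 7 muscle-rich tumours the list medians were 1.45 for T cells, 1.30 for macrophages, 0.29 for Trem2 and suppressive macrophages (1.49 over all tumours), 0.24 for checkpoints and exhaustion (0.93 over all), 0.73 for NK cells, 0.37 for neutrophils, 0.85 for MHC class II, -0.95 for the interferon-gamma response (-0.33 over all), -1.16 for the hepatocyte lineage and -1.68 for Wnt targets. Within the 15 arrays with dimmer hybridization controls they were 2.19 for T cells, 1.79 for macrophages, 1.75 for B cells, 1.51 for MHC class II, -1.23 for the hepatocyte lineage and -1.78 for Wnt targets. Within the 6 brighter arrays, with 1 or 2 tumours per arm, they were 0.72 for T cells, 0.44 for CD8 and cytotoxic cells, 1.39 for macrophages, -0.22 for B cells, 0.41 for MHC class II, -0.42 for the hepatocyte lineage and -0.30 for Wnt targets.

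The count of calls depended on single tumours and on their weights. Leaving out combination mouse 1 gave 285 probe sets above and 35 below the expectation at a limma adjusted p under 0.05. Leaving out lenvatinib mouse 5 gave 79 above and 2 below, and leaving out anti-PD1 mouse 4 gave 7 above and 0 below. Leaving out any other mouse gave 0. With limma's array weights, which were 0.18 to 0.64 on the 6 brighter arrays and 0.54 or more on the others, 772 probe sets (3.48%) passed above and 919 (4.14%) below. Under those weights 12 of 14 T cell genes, 12 of 16 macrophage genes and 4 of 10 MHC class II genes passed above the expectation, and 8 of 22 hepatocyte lineage genes, 4 of 10 Wnt targets and 5 of 19 mitosis genes passed below it. Of the 320 probe sets called without combination mouse 1, 317 were also among the 1691 called with array weights. The weights gave the array of that mouse only 0.37, so these settings are not independent and their overlap is no separate test.

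**Figure D5:**
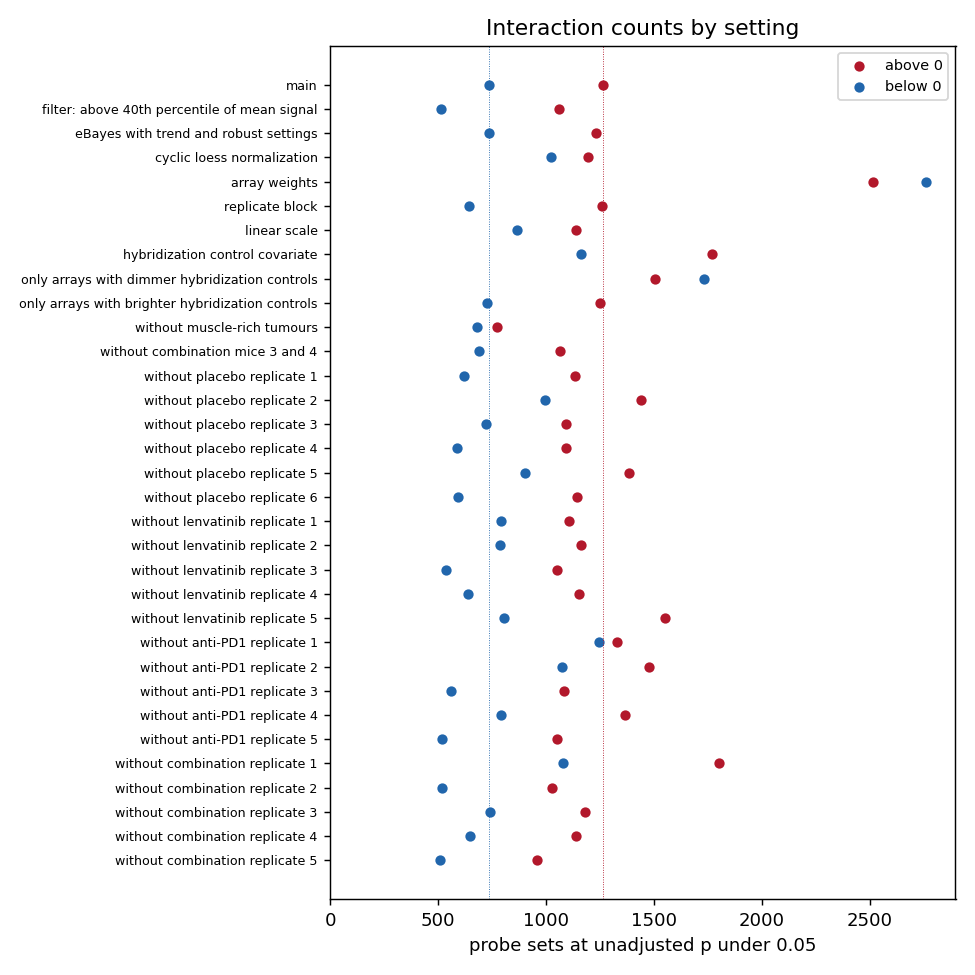
The number of probe sets at an unadjusted p under 0.05 (horizontal axis) is shown above the expectation (red) and below it (blue) for the main setting and each alternative. Dotted lines mark the main counts of 1266 and 736. Array weights give 2513 above and 2759 below, and leaving out combination mouse 1 raises the count above to 1802.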

How the data were processed

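Gene expression was measured in 21 tumours, 1 Clariom S Mouse array each. The authors deposited log2 signals, for which the submitters' processing notes name RMA and oligo but no versions. RMA corrects background, quantile-normalizes arrays and summarizes probes, so a shift common to most genes is lost. The annotation build is not given in the sources used here. The table held 29129 rows. Control rows (6923) did not enter. The other 22206 probe sets were tested unfiltered, of which 19572 had 1 symbol in the platform annotation, 0 several and 2634 none. For the lists, a gene with several probe sets (55 genes) was read from the probe set with the highest mean.

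Arms came from the titles. limma 3.58.1 in R 4.3.3 was fitted to 4 arm means over all tumours (17 residual and 3.83 prior degrees of freedom). The contrast was combination minus anti-PD1 minus lenvatinib plus placebo, two-sided, with Benjamini-Hochberg adjustment over all tested probe sets. Each tumour came from another mouse, and p-values reflect variation among mice.

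The genes named are the 10 with the smallest p on each side, without provisional names or probe sets below the negative-control median of 4.08 in every arm, with the 3 leading members of each list (1 where under 20% of members had an unadjusted p under 0.05) and PD-1, its ligands and the lenvatinib receptors. Not every gene the rule takes is described. Tgfbi, Camp, Ngp, Mmp8, Mmp9, Il2ra, Ikzf2, Ikzf4, Il10, Ccr8, Prdm1, Xbp1, Derl3, Fn1 and Vegfa were named after their values were seen. So were Tigit, Tox, Tnfsf4, Cd70, Tnfsf9, Dcn and Fbln1, and also Lif, which the rule takes. None of these genes enters the counts over named genes. The members, the 42 lists (595 genes, 544 measured, 51 not matched) and the tests were chosen with earlier results of these data known. Mouse numbers mark separate animals. Over 30 pairs of same-numbered tumours the correlations of deviations from arm means ran from -0.63 to 0.56, with 15 over 0.1. Tumours with different numbers were not compared in this way, so these correlations cannot decide whether the numbers pair tumours. The main fit treated the tumours as unpaired. The highest correlation between arrays was 0.988, and no array was a copy of another. Alternatives were a filter, eBayes settings, cyclic loess, array weights, a mouse-number block, the linear scale (each probe set divided by its mean), the hybridization control signal as a covariate or a split, and leaving out tumours. Restricting to the brighter arrays was added after seeing the data. The fit was tested on simulated data.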

Additional observations from a re-analysis of the deposited data

Results flagged for a closer look

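Of 568 arm-by-measure groups tested for a single tumour far from the rest of its arm, 34 were marked, and chance marks about 1 in 20 such groups. Combination mouse 1 stood below the other combination tumours in Klrd1 (4.82, against 7.65 to 8.59), Icos (5.20, against 7.35 to 7.98), Jchain (6.13), Ctss (9.40), H2-Ab1 (9.55, against 11.41 to 11.73), H2-K1 (10.34), the NK cell score (-0.56) and the checkpoint and exhaustion score (-0.43), and above them in Plekha6 (5.49, against 4.88 to 4.93). Its array is among the 6 with brighter hybridization controls.

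Lenvatinib mouse 5 stood above the other lenvatinib tumours in Nkg7 (9.35), Entpd1 (9.93), Ms4a7 (11.11), Trem2 (8.92, against 6.88 to 7.26), H2-Aa (11.08), Cxcr6 (6.70), Cxcl16 (11.64), the T cell score (0.57, against -0.59 to -0.40), the NK cell score (0.71) and the CD4 and regulatory T cell score (0.60). Its array is not among the brighter 6.

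Anti-PD1 mouse 1, on the array with the lowest weight, was high in Flt3 (4.01) and Thy1 (7.80) and low in Perp (6.66) and the p53 target score (-0.78). Anti-PD1 mouse 2 was low in Retnlg (4.29) and the inflammatory cytokine score (-1.13) and high in the skeletal muscle score (3.06). Combination mouse 2 was high in the skeletal muscle score (4.56), combination mouse 4 in the lymphatic endothelial score (1.40), and lenvatinib mouse 2 in the epidermal keratinocyte score (0.94). Placebo mouse 3 was high in Ctsw (6.94), Ctss (11.18) and the CD4 and regulatory T cell score (0.50), placebo mouse 2 was high in Oas2 (4.92), and placebo mouse 4 was low in Wasf1 (3.18).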

How the results depend on the processing

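No probe set passed an adjusted p under 0.05 in limma, nor under 0.1 or with adjustment over the named probe sets alone, and 0 passed in either direction after the filter on dim probe sets, trend and robust eBayes, cyclic loess, the linear scale, the hybridization control covariate, the dimmer or the brighter arrays alone, without muscle-rich tumours or without combination mice 3 and 4. Array weights gave 772 above and 919 below the expectation, and 2513 and 2759 at an unadjusted p under 0.05. Leaving out 1 mouse at a time gave 0 to 285 above and 0 to 35 below, and 959 to 1802 above and 510 to 1245 below at an unadjusted p. The deciding mice were combination mouse 1 (285 and 35), lenvatinib mouse 5 (79 and 2) and anti-PD1 mouse 4 (7 and 0), and without anti-PD1 mouse 1 the unadjusted count below was 1245. Of the 81 probe sets called without lenvatinib mouse 5, 74 were among the 320 called without combination mouse 1. At the unadjusted threshold the covariate gave 1769 above and 1162 below, the 15 dimmer arrays 1503 and 1734, the tumours that were not muscle-rich 773 and 678, cyclic loess 1195 and 1021, and the linear scale 1140 and 866, against 1266 and 736. The cause was not tested, other than that fewer tumours enter some of these fits. With the mouse number as a replicate block 0 probe sets passed, and 1258 above and 643 below had an unadjusted p under 0.05.

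Of the 100 genes named here by the rule other than Lif, 89 kept the sign of their interaction under all 32 alternatives that gave them a value. The filter left 9 without one. In the 6 brighter arrays alone the sign turned for Cd22 (-0.0936), Thy1 (-0.57), Fos (-0.25), Bnip3 (0.0936), Perp (0.19), Cd274 (-0.11), Flt1 (1.16) and Fgfr2 (0.99). Without muscle-rich tumours it turned for Cd274 (-0.71) and Fgfr2 (0.50). In the dimmer arrays alone it turned for Fgfr1 (-0.18) and Kit (-0.95), on the linear scale for Fgfr1 (-0.0133 of its mean signal) and Kit (-0.61 of its mean), with array weights for Kit (-0.43), and without combination mice 3 and 4 for Kit (-0.0898). Leaving out 1 mouse at a time gave -0.11 to 0.51 for Cd274, -0.69 to 0.20 for Kdr, -0.54 to 0.14 for Flt1, -0.048 to 0.43 for Fgfr1, -0.85 to 0.13 for Fgfr2 and -0.35 to 0.98 for Kit. Of the 42 list medians, 26 kept their sign under every alternative run. The 16 that turned under at least 1 were those of the B cell, type I interferon-stimulated, inflammatory cytokine, tip cell, lymphatic endothelial, pericyte, collagen, TGF-beta pathway, hypoxia and glycolysis, DNA replication, p53 target, respiratory chain, skeletal muscle, adipocyte, Schwann cell and epidermal keratinocyte lists. In the brighter arrays the collagen median was -0.31 and the DNA replication median 0.05. Leaving out combination mouse 4 gave 0.56 for B cells, 0.37 for costimulation and 0.62 for lymphocyte chemokines, and leaving out anti-PD1 mouse 2 gave 0.65 for the Trem2 list and 0.44 for neutrophils. Without combination mouse 2 the skeletal muscle median was -0.04, and without placebo mouse 4 the cholesterol median was -0.52. Over all single mice left out, the medians ran from -0.58 to -0.06 for the interferon-gamma response, from -0.87 to -0.34 for DNA replication (nearest 0 without anti-PD1 mouse 5), from 0.12 to 0.41 for collagen, from -0.34 to -0.05 for the endothelial list, from -0.38 to -0.0017 for lenvatinib targets, from 0.14 to 0.36 for MHC class I, from -0.03 to 0.43 for inflammatory cytokines, from -0.0051 to 0.34 for the TGF-beta pathway, from 0.19 to 1.18 for adipocytes and from 0.31 to 0.98 for mast cells. The T cell, CD8, NK cell, macrophage, MHC class II, hepatocyte lineage, Wnt target, MAP kinase, mitosis and fibroblast medians moved by less than 1.5 times when any 1 mouse was left out.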

Other observations

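Genes of tissues and pathways outside those above had interactions of smaller size or wider error. The adipocyte list had 0 of 11 genes at an unadjusted p under 0.05, and its score interaction was 1.18 ± 1.46. The mast cell list had 7 of 9 above with a median of 0.48 and 1 at that threshold. The Schwann cell list had a median of -0.16 over 6 measured genes.

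In the epidermal keratinocyte list 8 of 11 genes were below the expectation, and Perp, a desmosome protein, was the 1 at an unadjusted p under 0.05, at -1.39 ± 0.55. Of the erythroid list 4 of 9 genes were measured, 3 of them below, led by Alas2, the first enzyme of erythroid haem synthesis, at -0.69 ± 0.30. The respiratory chain list had 13 of 17 above with a median of 0.12, and the p53 target list had 6 of 13 above with a median of -0.14.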
